A study of Rattus norvegicus with 18 samples.

Results

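The neural immunoglobulin cell adhesion molecules were followed in primary rat cortical neurons that received an shRNA against CHD5, a chromatin remodeling ATPase of the brain. The family was taken as 9 genes, L1cam, Nrcam, Nfasc, Chl1, Ncam1, Cntn1, Cntn2, Cntn3 and Cntn4, and a gene was counted when a probe of the array carried its symbol. Of the 9 genes 6 had a probe, with 1 probe each, among 22523 probes in all. Nrcam, Chl1 and Cntn3 were matched by no probe symbol and were not analysed here. A probe was kept when its signal stood above the negative control beads on at least 1 array, with a detection p-value of at most 0.02, and 11079 probes were kept. L1cam, Ncam1, Cntn1, Cntn4 and Nfasc were kept, and Cntn2 was not.

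The neurons came from rat embryos and were plated, then exposed 1 day later for 6 hours to a lentivirus made in HEK-293T cells, a human embryonic kidney line, from the pLKO.1 vector. One set of cultures received a scrambled control shRNA and the other an shRNA against CHD5, so both carried a lentiviral vector. RNA was harvested on day 5, day 9 or day 12 of culture and measured on Illumina RatRef-12 arrays, with 3 arrays, a, b and c, in each of the 6 groups. The arrays measured 1 CHD5 lentivirus. On them an effect of that one sequence on other targets cannot be told apart from loss of CHD5. No probe carried the symbol Chd5, so the depletion itself was not read here. By quantitative PCR on independent samples, the study reported L1cam among the neuronal genes that CHD5 represses. There, a target not reproduced with a different shRNA was treated as a possible off-target result. Those PCR measurements were not part of the arrays. No label says that the 3 arrays of a group came from separate cultures or animals, and the p-values measure the spread between these samples, which may be technical.

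These molecules sit on the surface of neurons and carry immunoglobulin domains on the outside of the cell. L1cam, Nrcam, Nfasc and Chl1 form the L1 family, which spans the membrane and binds ankyrins and so the spectrin skeleton of the axon. Ncam1 is the neural cell adhesion molecule, which is made in membrane-spanning and lipid-anchored forms and can carry polysialic acid. The contactins, Cntn1 to Cntn4, are lipid-anchored, bind L1 family proteins and contactin-associated proteins, and take part in axon growth and in building the node of Ranvier. In cortical neurons the family is known for axon growth, fasciculation and guidance.

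The probe sequences are given for the 3 genes whose signals changed, since each result below is the signal of a single 50-base probe and is blind to transcripts without that stretch. The array annotation divides the Ncam1 probe into blocks of 12 and 38 bases that lie apart in the genome, and the first 12 bases are in capitals. The Ncam1 and Cntn1 probes read coding sequence, and the Ncam1 probe reads the intracellular tail, which the lipid-anchored form of the protein lacks. The first 30 of 50 bases are shown for L1cam.
Ncam1: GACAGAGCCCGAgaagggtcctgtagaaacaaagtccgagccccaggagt
Cntn1: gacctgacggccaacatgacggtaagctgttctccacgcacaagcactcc
L1cam: ttggctagacttttccctgctgccaccata
The array annotation placed the L1cam probe on chromosome 1, whereas RefSeq (GRCr8) has L1cam on chromosome X. The annotated and RefSeq chromosomes were the same for the other 5 genes with a probe, and the transcript behind the L1cam probe was not checked against a genome.

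L1cam, Ncam1 and Cntn1 were detected on 18 of 18 arrays. Their signals ranged from 83.9 to 285 for L1cam, from 113 to 479 for Ncam1 and from 125 to 729 for Cntn1, in arbitrary units of bead brightness. Cntn4 was detected on 17 arrays, with signals from 74.4 to 256. Nfasc, the neurofascin gene, was detected on 12 arrays, and its signals of 65.0 to 135 lay close to the background. Cntn2, which encodes the axonal contactin TAG-1, was detected on 0 of 18 arrays at signals from 68.2 to 106, and no fold change is given for it. Below, a level is the log2 signal after each array was brought to a common mean and spread, and levels are compared between arrays for the same probe and never between probes.

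Control replicate b of day 9 stood apart from the other arrays. Its mean signal was 135, against 400.2 to 789 on the other 17 arrays, and 7047 probes were detected on it, against 8360 to 9931. The levels on that array were stretched by the scaling, and the fit was repeated without it. The repeat also changed the estimate of spread shared by all groups, so it moved results of the other days too.

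Cultures with CHD5 shRNA had higher L1cam signal at days 9 and 12 and higher Ncam1 signal at day 9 than control cultures, and 0 of the 5 genes were called lower on any day. A gene is called here when limma's Benjamini-Hochberg adjusted p, taken over all kept probes, is under 0.05. At day 5 limma called 0 of the 5 genes, where 0.171% of kept probes were called, and 0 of the 5 had an unadjusted p under 0.05. At day 9 limma called 2 of 5 genes, L1cam and Ncam1, where 5.89% of kept probes were called. At day 12 limma called 1 of 5, L1cam, where 5.47% were called. Without control replicate b of day 9 the same genes were called at days 9 and 12, and 0 at day 5, while the share of probes called was 1.49%, 10.8% and 13.3% of 10891 at days 5, 9 and 12.

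**Figure D1:**
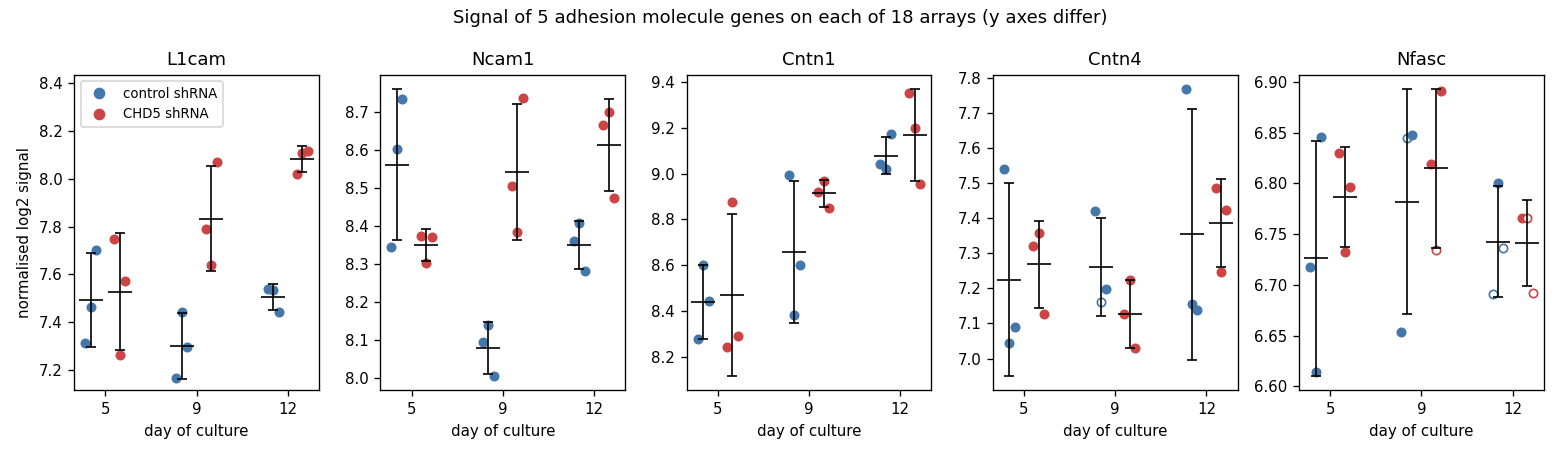
Normalised log2 signal (y axis) of the 5 kept adhesion molecule genes by day of culture (x axis), with control shRNA arrays in blue and CHD5 shRNA arrays in red. Each point is 1 array, an open point is an array on which the probe was not detected, and black bars give the group mean ± SD (n = 3). L1cam at days 9 and 12 and Ncam1 at days 9 and 12 separate the 2 shRNAs without overlap, and Cntn1 is higher at day 12 than at day 5 under both.

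L1cam, the founding member of the L1 family and a promoter of axon growth, was called at both day 9 and day 12. At day 5 its level was 7.31, 7.46 and 7.70 on control arrays a, b and c and 7.75, 7.26 and 7.57 on the CHD5 shRNA arrays, and the groups overlapped. At day 9 it was 7.17, 7.44 and 7.30 on the controls and 7.79, 7.64 and 8.07 with CHD5 shRNA, so that each CHD5 shRNA array was above each control. At day 12 it was 7.54, 7.53 and 7.44 on the controls and 8.02, 8.11 and 8.12 with CHD5 shRNA, again without overlap. The arrays of day 12 lay close together, with an SD of 0.06 in the controls and 0.05 with CHD5 shRNA.

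The difference in L1cam was 0.53 ± 0.13 on the log2 scale at day 9 (SE, n = 3 against 3), which is 1.45-fold higher with CHD5 shRNA (limma adjusted p = 0.0259). It was 0.58 ± 0.13 at day 12, or 1.49-fold (limma adjusted p = 0.0151). The 95% interval ran from 0.25 to 0.81 at day 9 and from 0.30 to 0.86 at day 12. At day 5 the difference was 0.04 ± 0.13, with an interval from -0.25 to 0.32. Leaving out control replicate b of day 9 gave 0.62 at day 9 (limma adjusted p = 0.00725). The call at day 9 was lost without control replicate c or without CHD5 shRNA replicate a or c of that day, with differences of 0.41 to 0.63 over all arrays left out in turn. The call at day 12 was lost without control replicate a or c or CHD5 shRNA replicate b or c, with adjusted p up to 0.0693 and differences of 0.55 to 0.61. Centring arrays on their medians in place of the scaling ended both calls, and the day 9 call was also lost with only the arrays of the comparison (limma adjusted p = 0.329) and when detection was required on all 3 arrays of some group (limma adjusted p = 0.0512). Under neqc, limma's background correction with quantile normalization, the day 9 difference was 0.81 and was called.

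Ncam1, which binds itself across neighbouring cells, was higher with CHD5 shRNA at day 9. At day 5 its level was 8.34, 8.60 and 8.74 on the controls and 8.38, 8.30 and 8.37 with CHD5 shRNA. At day 9 it was 8.09, 8.14 and 8.01 on the controls and 8.51, 8.39 and 8.74 with CHD5 shRNA. At day 12 it was 8.36, 8.41 and 8.28 on the controls and 8.66, 8.70 and 8.47 with CHD5 shRNA. The groups overlapped at day 5 and did not overlap at days 9 and 12.

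The Ncam1 difference at day 9 was 0.46 ± 0.11 on the log2 scale, or 1.38-fold (SE, n = 3 against 3, limma adjusted p = 0.0204), with an interval from 0.23 to 0.70. Without control replicate b of day 9 it was 0.51 (limma adjusted p = 0.00820). The call was lost without control replicate c or CHD5 shRNA replicate a or c of day 9, with differences of 0.37 to 0.54 over all arrays left out, and under quantile normalization, under neqc, under median centring or with only the arrays of the comparison. At day 12 the difference was 0.26 ± 0.11 and was not called (limma adjusted p = 0.229), with an interval from 0.03 to 0.50. At day 5 it was -0.21 ± 0.11 (limma adjusted p = 0.953), with an interval from -0.45 to 0.02.

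**Figure D2:**
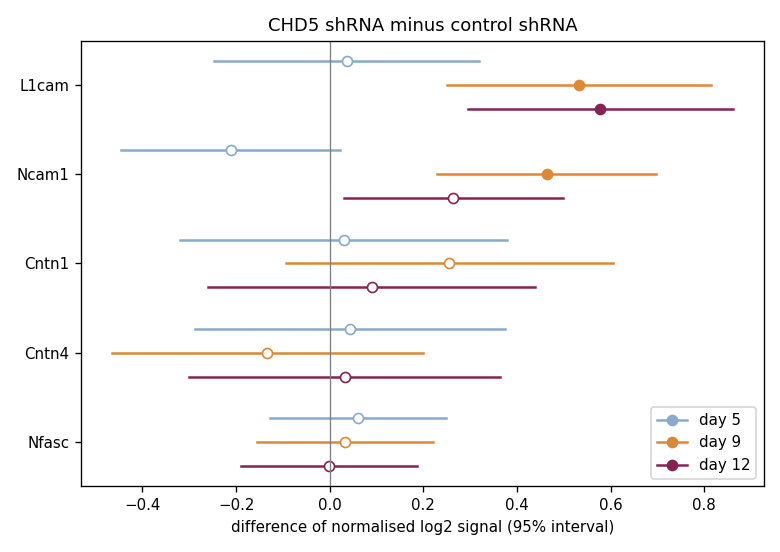
Difference of normalised log2 signal between CHD5 shRNA and control shRNA (x axis) for each gene (y axis) at days 5, 9 and 12. Points are limma estimates from 3 against 3 arrays, lines are 95% intervals, and filled points have an adjusted p under 0.05. The filled points are L1cam at day 9 (0.53) and day 12 (0.58) and Ncam1 at day 9 (0.46).

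The contactins and Nfasc did not pass the test on any day. Cntn1, contactin 1, differed by 0.03 ± 0.17 at day 5, 0.26 ± 0.17 at day 9 and 0.09 ± 0.17 at day 12. The interval at day 9 ran from -0.09 to 0.60, and without control replicate b of that day the difference was 0.12. Without that array Cntn4 and Nfasc differed at day 9 by -0.18 and 0.07, and neither was called. Cntn4, contactin 4, differed by 0.04 ± 0.16, -0.13 ± 0.16 and 0.03 ± 0.16 at days 5, 9 and 12. Nfasc, which organises the axon initial segment, differed by 0.06 ± 0.09, 0.03 ± 0.09 and less than 0.01 in size, in that order. The intervals over the 3 days reached from -0.47 to 0.38 for Cntn4 and from -0.19 to 0.25 for Nfasc, so a difference of the size seen in L1cam lay outside them, although a signal near background, as that of Nfasc, understates a change. Of the 5 genes 0 had groups without overlap at day 5, where 11.0% of kept probes did not overlap. At day 9 the count was 2 of 5 beside 20.6% of kept probes, and at day 12 it was 2 of 5 beside 38.2%, which is close to the background. The exact permutation test of 3 against 3 arrays cannot go below p = 0.1, and gave that value, two-sided, where groups did not overlap.

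Over the days of culture Cntn1 rose under both shRNAs. In the controls its day 5 level was 8.28, 8.60 and 8.44, its day 9 level 8.99, 8.38 and 8.60, and its day 12 level 9.04, 9.02 and 9.17. With CHD5 shRNA the day 5 level was 8.24, 8.88 and 8.29, the day 9 level 8.92, 8.97 and 8.85, and the day 12 level 9.35, 9.20 and 8.95. Each array of day 12 was above each array of day 5 with the same shRNA. From day 5 to day 12 Cntn1 rose by 0.64 ± 0.17 in the controls, or 1.56-fold (limma adjusted p = 0.00870), and by 0.70 ± 0.17 with CHD5 shRNA, or 1.62-fold (limma adjusted p = 0.00650). It was called in both under each of the 28 alternatives run.

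Ncam1 and L1cam took other courses. In the controls Ncam1 fell by 0.48 ± 0.11 from day 5 to day 9 (limma adjusted p = 0.00500), without overlap of the 3 arrays, a call that quantile normalization (-0.26), neqc, array weights and a fit of only those arrays did not keep, and the value for day 12 minus day 9 was 0.27 ± 0.11, which was not called (limma adjusted p = 0.188). When control replicate b of day 9 was left out, these changes were -0.52 and 0.31, and the first was still called. With CHD5 shRNA the Ncam1 change from day 5 to day 9 was 0.19 ± 0.11 and was not called. L1cam stood at 7.49 ± 0.20 in the controls at day 5 and 7.50 ± 0.06 at day 12 (SD, n = 3), a change of 0.01 ± 0.13. With CHD5 shRNA it rose from 7.53 ± 0.25 to 8.08 ± 0.05 over the same days, by 0.56 ± 0.13 (limma adjusted p = 0.00731). The test no longer called this rise without CHD5 shRNA replicate b of day 5, the lowest of its group (limma adjusted p = 0.0554).

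In the controls, day 9 against day 5, 1 of 5 genes was called where 22.0% of kept probes were, and day 12 against day 5, 1 of 5 where 23.6% were. Between days 9 and 12 of the controls limma called 0 of 5 (2 had an unadjusted p under 0.05), where 4.16% of kept probes were called. With CHD5 shRNA limma called 0 of 5 from day 5 to day 9 (2 at an unadjusted p under 0.05, background 9.33%), 0 of 5 from day 9 to day 12 (0 at an unadjusted p under 0.05, background 1.37%) and 2 of 5 from day 5 to day 12 (background 17.0%). When control replicate b of day 9 was left out, Cntn1 was also called with CHD5 shRNA from day 5 to day 9 and the backgrounds with CHD5 shRNA were 25.8%, 4.95% and 32.2%, in the same order. Those of the controls were then 21.0% for day 9 against day 5, 39.0% for day 12 against day 5 and 6.34% between days 9 and 12. Cntn4 changed between days by 0.04 to 0.13 in the controls and -0.14 to 0.26 with CHD5 shRNA, and Nfasc by -0.04 to 0.06 and -0.07 to 0.03, none of which was called.

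**Figure D3:**
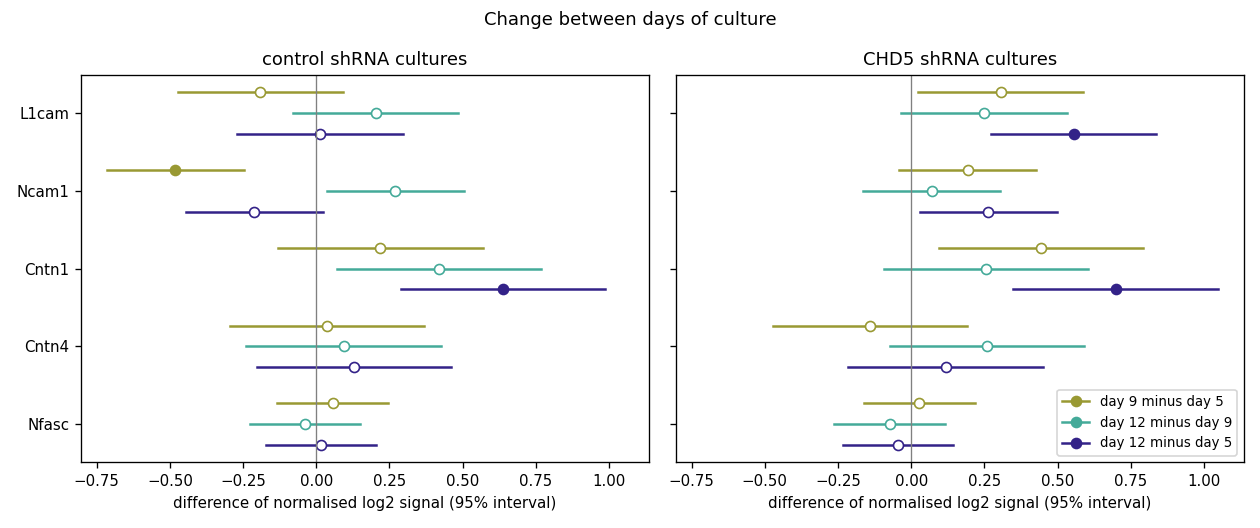
Change of normalised log2 signal between days of culture (x axis) for each gene (y axis), in control cultures on the left and CHD5 shRNA cultures on the right. Points are limma estimates (n = 3 against 3), lines are 95% intervals, and filled points have an adjusted p under 0.05. Cntn1 from day 5 to day 12 is filled in both panels (0.64 and 0.70), Ncam1 from day 5 to day 9 in the control panel (-0.48) and L1cam from day 5 to day 12 in the CHD5 shRNA panel (0.56).

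The change of the CHD5 shRNA difference from one day to another was tested by itself. It was called for 0 of 5 genes between days 5 and 9 and between days 9 and 12, where 0% of kept probes were called, and for 0 of 5 between days 5 and 12, where 0.153% were called. At an unadjusted p under 0.05, limma gave 2 of 5, 0 of 5 and 2 of 5 genes in these comparisons. The change of the Ncam1 difference was 0.68 ± 0.16 for day 9 minus day 5, with an interval from 0.34 to 1.01 (limma adjusted p = 0.250). Without control replicate b of day 9 this change was 0.72 and was called (limma adjusted p = 0.0368), beside 0.634% of probes called in that fit. The L1cam difference was not called as different between days, at 0.50 ± 0.19 for day 9 minus day 5 (limma adjusted p = 0.557) and 0.54 ± 0.19 for day 12 minus day 5 (limma adjusted p = 0.406). When that array was left out, these were 0.58 (limma adjusted p = 0.155) and 0.55 (limma adjusted p = 0.121), beside backgrounds of 0.634% and 2.41%, and neither was called.

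The cultures were checked with marker lists of neurons and of other cells. Of the neuronal genes 9 had a probe, 8 of them were detected on all 18 arrays and Elavl3 on 13. At day 9 the neuronal list had 1 called gene, Tubb3, which encodes neuronal beta-tubulin and was higher with CHD5 shRNA by 0.55, and the list's median difference was 0.09. At day 12 Tubb3 was again the called gene, at 0.53, and the median was 0.04. The medians over all kept probes were -0.02 at day 9 and 0.01 at day 12. A count of 1 of 9 genes is 11.1% on each day, beside 5.89% and 5.47% of all kept probes called. Without control replicate b of day 9 the neuronal medians were 0.16 and 0.04, and Tubb3 was the called gene on each day. The background was then 10.8% and 13.3% of probes, and 1 of 9 is close to it. The summed level of the 9 neuronal genes was 18945 to 48660 on the day 9 controls, or 18945 to 20683 without replicate b. With CHD5 shRNA it was 22534 to 24194. At day 12 it was 21963 to 23234 on the controls and 23209 to 24144 with CHD5 shRNA.

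With CHD5 shRNA 8 of 11 astrocyte genes were lower at day 9 and 7 of 11 at day 12. The median differences of the list were -1.19 and -0.83. These counts stand beside 5.89% and 5.47% of all kept probes called. When control replicate b of day 9 was left out, the counts were 8 and 9 of 11, with medians of -0.86 and -0.85. In that fit 10.8% and 13.3% of probes were called. Gfap, the intermediate filament of astrocytes, was lower by 1.24 at day 9. At day 12 Gfap differed by -0.43 and was not called (limma adjusted p = 0.357). Aldoc, a glycolytic enzyme of astrocytes, was lower by 1.23 at day 9 and by 1.25 at day 12. Sox9, also on the list, differed by -0.07 and 0.12 and was called on neither day. The summed level of the 11 genes was 32843 to 135670 on the day 9 controls, or 32843 to 40582 without replicate b, and 19024 to 24778 with CHD5 shRNA. At day 12 it was 58410 to 62520 and 31173 to 32867. The part of this shift in the L1cam and Ncam1 differences was not tested, and in bulk RNA fewer cells of a type and less RNA per cell cannot be told apart.

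Other cell types were also followed at days 9 and 12. Cnp, a myelin enzyme, was lower on each day, and the 10 oligodendrocyte lineage genes had medians of -0.20 and -0.24. Of 3 excitatory neuron genes 1 was higher at day 9, Slc17a6, and 0 passed limma's test at day 12 (2 at an unadjusted p under 0.05), with medians of 0.41 and -0.08. Of 6 interneuron genes 1 was lower on each day, Npy, with medians of -0.20 and -0.10. Of 3 kept fibroblast genes 2 were lower on each day, but not the same 2, with list medians of -0.55 and -0.59. They were Col1a2 and Dcn at day 9, and Dcn and Lum at day 12. Col1a2 differed by 0.21 at day 12 and was not called (limma adjusted p = 0.858). Lum, which was detected on only 1 array, differed by -0.17 at day 9 and was not called. The 4 proliferation genes had medians of 0.02 and -0.18 and the 2 kept endothelial and pericyte genes -0.09 and -0.01. limma called 0 of these 6 genes, and 1 proliferation gene and 0 endothelial genes had an unadjusted p under 0.05 on each day. Microglial genes were near background, since 6 of 8 with a probe were detected on 0 arrays and the other 2, Aif1 and Cd68, on 1 and 3. The medians of those 2 were -0.15 and -0.07 in the fit with all arrays, where 0 were called by limma or had an unadjusted p under 0.05. In the fit without control replicate b of day 9 the day 9 medians were 0.03 for excitatory neuron, -0.10 for interneuron, -0.03 for oligodendrocyte lineage, -0.64 for fibroblast, -0.24 for proliferation, 0.07 for endothelial and pericyte and 0.08 for microglial genes.

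**Figure D4:**
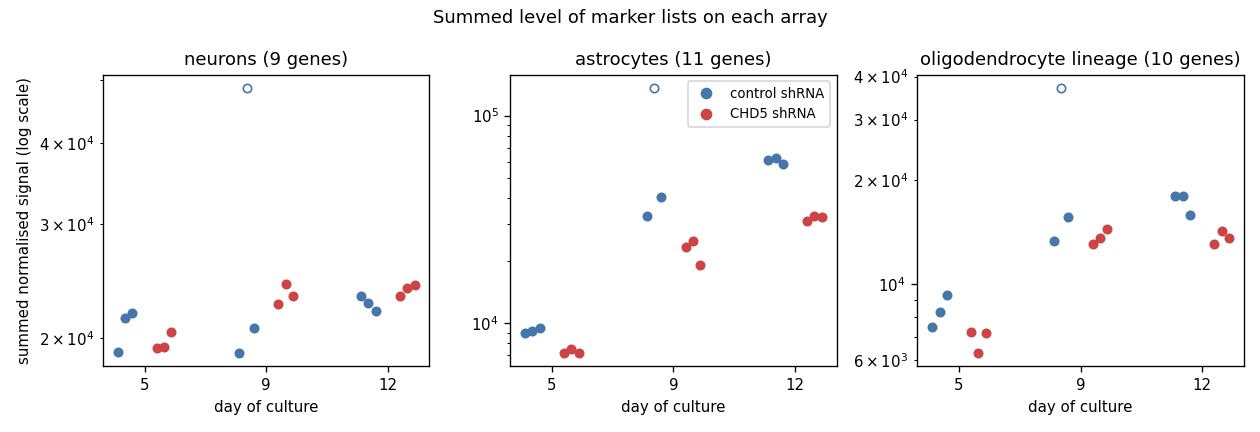
Summed normalised signal (y axis, log scale) of neuron, astrocyte and oligodendrocyte lineage marker lists by day of culture (x axis), control shRNA in blue and CHD5 shRNA in red. Each point is 1 array, and the open point is control replicate b of day 9, which stood apart. Astrocyte levels with CHD5 shRNA (19024 to 24778 at day 9) lie below the controls on each day.

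Further immunoglobulin adhesion molecules of neurons gave 1 called gene of 16 kept on each of days 9 and 12, which is 6.25% and close to the 5.89% and 5.47% of all kept probes, and the median difference of the list was 0.05 and -0.065. The called gene was Thy1, a lipid-anchored surface protein of mature neurons, with a difference of 0.62 ± 0.11 at day 9 (limma adjusted p = 0.00421) and of 0.53 ± 0.11 at day 12 (limma adjusted p = 0.00756), both upward. Cadm3, a synaptic adhesion molecule, differed by 0.49 ± 0.16 and 0.53 ± 0.16 and was not called. Without control replicate b of day 9, 4 of the 16 were called on each day, Thy1 and Cadm3 higher on both, Negr1 lower on both, Dscaml1 lower at day 9 and Lsamp lower at day 12, beside 10.8% and 13.3% of probes called in that fit.

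Among extracellular partners of the family, 14 genes were kept. At day 9 limma called 1 higher and 0 lower, and at day 12 it called 1 higher and 2 lower, with medians of -0.10 and -0.16. The day 9 share, 7.14%, is near the 5.89% of all kept probes, and the day 12 share is 21.4% beside 5.47%. In the fit without control replicate b of day 9, 0 were called at day 9, where Cntnap4 had a limma adjusted p of 0.0646, and 5 at day 12, beside the same 10.8% and 13.3%. Cntnap4, which belongs to the contactin-associated proteins, exceeded the controls by 0.36 ± 0.10 at day 9 (limma adjusted p = 0.0486) and at day 12 by 0.37 ± 0.10 (limma adjusted p = 0.0413). Tnr, the matrix protein tenascin-R that binds Cntn1, was lower by 0.65 ± 0.14 at day 12. Bcan, the proteoglycan brevican, was lower by 0.47 ± 0.10 at day 12 and was detected on 8 of 18 arrays.

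Among 8 kept enzymes that modify or cleave these molecules, 1 was higher at day 9, and 1 was higher and 1 lower at day 12, or 12.5% and 25% beside 5.89% and 5.47% of all kept probes, with medians of -0.055 at day 9 (0.050 without control replicate b) and within 0.01 of 0 at day 12. B3gat1, which makes the HNK-1 carbohydrate carried by Ncam1 and L1cam, exceeded the controls at day 9 by 0.71 ± 0.15 (limma adjusted p = 0.0107), and at day 12 by 0.67 ± 0.15 (limma adjusted p = 0.0121). Adam17, a protease that sheds surface proteins, was lower by 0.42 ± 0.10 at day 12. The polysialyltransferases St8sia2 and St8sia4, which add polysialic acid to Ncam1, were detected on 3 and 1 of 18 arrays.

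Among 20 kept cytoplasmic partners, 2 were higher at day 9, and 2 were higher and 1 lower at day 12, with medians of 0.17 and 0.13. These are 10% and 15% of the list, beside 5.89% and 5.47% of all kept probes. In the fit without control replicate b of day 9, 5 and 6 of the 20 were called, beside 10.8% and 13.3% of probes. Ap2m1, the clathrin adaptor subunit that recognises the endocytosis signal of L1cam, was higher by 0.62 ± 0.13 at day 9. At day 12 Ap2m1 differed by 0.46 ± 0.13 and was not called with all arrays (limma adjusted p = 0.0527). It was called at day 12 without control replicate b of day 9, the single alternative run for this list. Pak1, a kinase of the actin skeleton, was higher by 0.56 ± 0.12 and 0.48 ± 0.12 on the 2 days, and by 0.37 at day 9 without that control array. Sptbn1, a spectrin of the membrane skeleton, was higher by 0.56 ± 0.14 at day 12, and Ezr, which encodes ezrin, was lower by 0.54 ± 0.14. At day 5 limma called 0 of the 58 kept genes of these 4 lists, and 4 had an unadjusted p under 0.05.

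**Figure D5:**
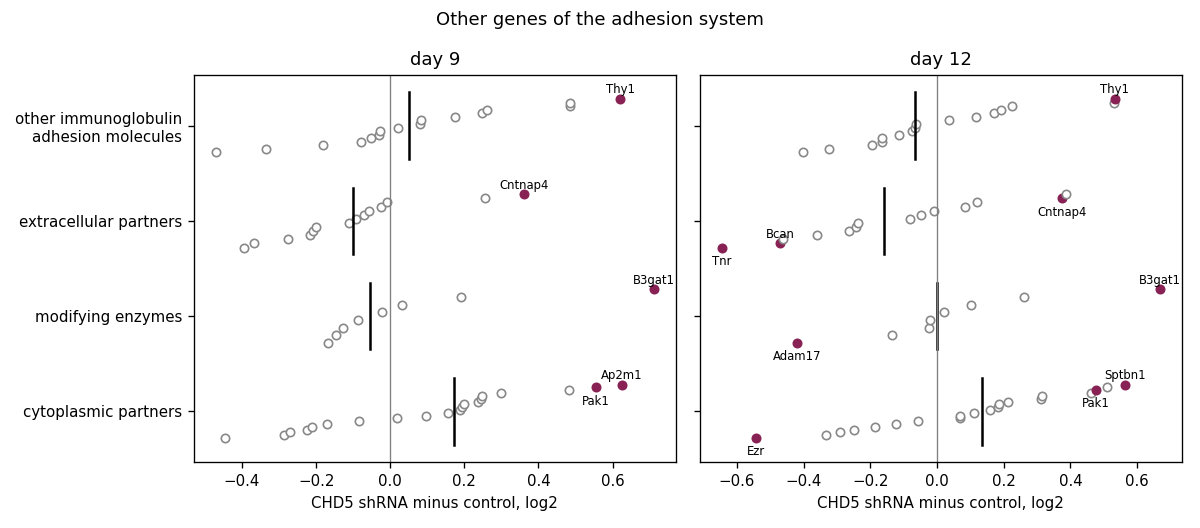
Difference of normalised log2 signal between CHD5 shRNA and control (x axis) at day 9 and day 12 for kept genes of 4 lists (y axis), 1 point a gene. Filled, named points have a limma adjusted p under 0.05 and black bars are list medians. Thy1, Cntnap4, B3gat1 and Pak1 are filled and to the right of 0 on both days.

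Over the 18 arrays the level of L1cam followed that of Ncam1 with a Pearson r of 0.76, which is also 0.76 without control replicate b of day 9. Other pairs of kept members lay between -0.45 (Nfasc and Cntn4) and 0.32 (L1cam and Cntn1). These values are descriptions, since the arrays share 6 groups and the scaling. The probes most like L1cam were those of Ube2e3 (r = 0.93), a ubiquitin-conjugating enzyme, Mapk8ip1 (0.91), a scaffold of the JNK pathway, and Ap3b2 (0.89), a neuronal adaptor subunit. Near the top for Ncam1 were Lrpprc (0.92) and Ap3d1 (0.87), an adaptor subunit. Those most like Cntn1 were Mal2 (0.93), Glrb (0.91), the beta subunit of the glycine receptor, and the probe now named Napb (0.91). For Cntn4 and Nfasc the nearest probes, Ppial4g and Cyb561d1, reached 0.79 and 0.78.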

How the data were processed

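The deposited signal intensity of each probe is the mean over its beads, which the authors extracted with GenomeStudio 1.1.1 without normalization or background subtraction, and the deposited detection p-value compares it with negative control beads. Probes detected on 1 array or more (p-value limit 0.02) were kept, and their log2 signals were turned into Z-scores within an array, after the study's methods, then rescaled by the average SD. This sets each array to one mean and spread, so shifts of all genes are not seen. R 4.3.3 with limma 3.58.1 (lmFit, eBayes) was run on 6 groups of 3 arrays over 11079 probes, with Benjamini-Hochberg adjustment within each of 12 contrasts, and tested on simulated data. Arrays give no read depth, and 3 arrays a group limit the precision. The 6 arrays of replicate a were also measured a second time, and that second measurement entered only an alternative. Replicate letters paired the arrays at day 5, where deviations of same-letter arrays correlated by 0.17 to 0.38. At day 5 the fit with the letter as a block called 0 of the 5 kept members, as did the fit without it. The members, the gene lists and the rules for named genes (all members, called list genes, and the 3 probes most like each kept member) were chosen with earlier results of these data known. Some genes that these rules name are not reported here.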

Additional observations from a re-analysis of the deposited data

How the results depend on the processing

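The counts of members called, each member's CHD5 shRNA difference, the changes between days of L1cam, Ncam1 and Cntn1 and the changes of the L1cam and Ncam1 differences were recomputed under up to 29 alternatives, 18 of which left out 1 array. The marker and partner lists were recomputed only without control replicate b of day 9, an alternative chosen after seeing the data, and the correlations between members likewise. The call of Cntn1 from day 5 to day 12 held under all of them, and L1cam at day 9 and day 12 kept its direction under all. At day 9 the number of genes called with CHD5 shRNA fell from 2 to 1 under quantile normalization and under neqc (Ncam1 lost in both) and when a probe had to be detected on all 3 arrays of some group (L1cam lost), and to 0 under median centring and with only the arrays of the comparison. At day 12 it went from 1 to 0 under median centring and to 2, with Ncam1, under array weights and with only the arrays of the comparison. In the controls from day 5 to day 9 it went from 1 to 0 under array weights and with only those arrays, and under quantile normalization and neqc Cntn1 was called in place of Ncam1. With CHD5 shRNA from day 5 to day 9 it went from 0 to 1 (Cntn1) under quantile normalization, neqc and with only those arrays, and to 2 under array weights. From day 9 to day 12 it went from 0 to 1 under array weights (L1cam) and with only those arrays (Cntn4). The causes were not tested. The share of all probes called is given only for the main fit and the fit without control replicate b of day 9. Between those 2 fits it moved from 9.33% to 25.8% with CHD5 shRNA from day 5 to day 9. A changed count under an alternative is therefore not read as a result about the members.

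With each array left out in turn, the number called with CHD5 shRNA ranged from 0 to 2 at day 9 and from 0 to 1 at day 12. It ranged from 0 to 1 in the controls from day 9 to day 12 (Cntn1 without control replicate a of day 9), from 0 to 1 with CHD5 shRNA from day 5 to day 9 (Cntn1 without CHD5 shRNA replicate b of day 5 or control replicate b of day 9) and from 1 to 2 from day 5 to day 12. For the change of the CHD5 shRNA difference from day 5 to day 9 it ranged from 0 to 1. Without control replicate b of day 9 the number of other immunoglobulin adhesion molecules called rose from 1 to 4 at day 9 and from 1 to 4 at day 12. That of extracellular partners went from 0 to 1 at day 5, from 1 to 0 at day 9 and from 3 to 5 at day 12, and that of cytoplasmic partners from 2 to 5 at day 9 and from 3 to 6 at day 12.

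With the replicate letter as a block, across days or within a day, the numbers called stayed at 0, 2 and 1 at days 5, 9 and 12 and no other call changed. At days 9 and 12 the letters are only shared, since same-letter correlations ran from -0.20 to 0.43 and from 0.01 to 0.15, and 3 of 6 arrays on each day correlated best with their own letter.

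Small differences that were not called changed sign. Without 1 array, the CHD5 shRNA difference ranged from -0.073 to 0.17 for L1cam at day 5, from -0.17 to 0.14 for Cntn1 at day 5, from -0.0018 to 0.20 for Cntn1 at day 12, from -0.046 to 0.20 for Cntn4 at day 5, from -0.075 to 0.24 for Cntn4 at day 12, from -0.033 to 0.073 for Nfasc at day 9 and from -0.027 to 0.028 for Nfasc at day 12. The change of L1cam in the controls from day 5 to day 12 ranged from -0.078 to 0.12, that of Ncam1 with CHD5 shRNA from day 9 to day 12 from -0.0086 to 0.17, and that of the L1cam difference from day 9 to day 12 from -0.051 to 0.17. Nfasc at day 9 was -0.037 under median centring, -0.017 with detection on 3 of 3 arrays and -0.0091 under array weights, and at day 12 it was 0.0065 under median centring and 0.015 without the detection filter. Cntn1 at day 5 was -0.0014 with the mean of both measurements, Cntn4 was -0.091 at day 5 under array weights and 0.067 at day 9 under neqc, and L1cam in the controls from day 5 to day 12 was -0.030 under array weights. The change of the L1cam difference from day 9 to day 12 was -0.0006 under neqc and -0.033 without the detection filter. Nfasc lies near the background, which limits what could be seen of it.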

Other observations

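The 6 arrays of replicate a were each measured a second time. After scaling, the second minus the first level ranged from 0.08 to 0.25 for L1cam, from -0.41 to 0.01 for Ncam1, from -0.42 to 0.06 for Cntn1, from -0.46 to 0.25 for Cntn4 and from -0.12 to 0.17 for Nfasc. With the mean of both measurements in place of the first, L1cam and Ncam1 were called at day 9 and L1cam at day 12.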
